A study of Mus musculus with 12 samples.

Results

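The 42 genes described here encode the subunits of the ionotropic glutamate, GABA and glycine receptors. They were picked by symbol alone, as every gene named in the Gria, Grik, Grin, Grid, Gabr or Glr series among the 56748 genes of the expression table, and no measured value entered the choice. They comprise 4 AMPA receptor genes, 5 kainate receptor genes, 7 NMDA receptor genes, 2 delta glutamate receptor genes, 19 GABA-A receptor genes (rho subunits included) and 5 glycine receptor genes.

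PolyA RNA was sequenced in 12 libraries from the retinas of mice aged 2 weeks, in 4 groups of 3. All mice were homozygous for RiboTag, an allele that puts an HA tag on the ribosomal protein Rpl22 in cells with Cre, and all carried i75-Rod-Cre, in which the rhodopsin promoter drives Cre, so the tag marks rods. Controls (RiboTag;Shp2fl/+;i75-Rod-Cre, here Het) had 1 floxed Shp2 allele, which Cre also deletes in their rods, and knockouts (RiboTag;Shp2fl/fl;i75-Rod-Cre, here KO) had both. For each genotype, 3 libraries came from the lysate of the whole retina and 3 from the HA-tagged ribosomes pulled down from it (Rod-TRAP, here rods). Tissue was frozen after perfusion with cycloheximide, which holds ribosomes on their mRNA. The control titles read wt, but the genotype label reads heterozygous. Nothing states which libraries came from separate mice, so p-values measure the spread between libraries only.

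Ionotropic receptors are ligand-gated ion channels. Glutamate opens the AMPA, kainate and NMDA types and depolarises the cell, whereas GABA and glycine open chloride channels. In the retina, photoreceptors release glutamate onto bipolar and horizontal cells, bipolar cells pass it to amacrine and ganglion cells, and amacrine cells release GABA or glycine. Most of these receptors are therefore known from neurons of the inner retina, and rods are better known as the source of glutamate than as its target.

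The values deposited are whole numbers already scaled to a common total within a fraction, between 14525527 and 14527992 per retina library and between 16263948 and 16265259 per rod library. They are printed below as deposited, in the order of replicates 1, 2 and 3. From the spacing of the low values, the libraries were estimated to hold between 9990000 and 25300000 reads (11 of 12 libraries), and 3 reads were worth 1.93 to 4.36 units of the table. Fold changes were computed with limma on log2(TMM-scaled value + 2), and a gene was called where the log2 fold change passed 0.5 in size with an adjusted p under 0.05. In bulk RNA, fewer cells of a type and less RNA per cell cannot be told apart.

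The targeted gene, Ptpn11, which encodes Shp2, was listed at 2511, 2439 and 2431 in Het rods and at 1735, 2139 and 1971 in KO rods. All KO rod libraries lay below all Het rod libraries, but the fall was not called (log2 fold change -0.23, SE 0.09, adjusted p = 0.078, limma). The value is for the gene as a whole, so the floxed part alone was not measured, and Het rods carry a floxed allele as well. The labelled fractions were checked against marker genes. All 12 rod markers were higher in rods than in retina in both genotypes, with median log2 fold changes of 1.85 (Het) and 1.98 (KO), and their summed share of the total was 15.4% to 18.1% in rods against 5.03% to 6.41% in retina. In the Het comparison 7 of 8 bipolar markers (median -5.02), 9 of 9 amacrine markers (-4.86), 9 of 9 ganglion cell markers (-5.06) and 8 of 8 Müller glia markers (-4.56) were lower in rods, while the 8 cone markers fell less (-1.08).

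Most receptor subunits were depleted from the rod fraction to about the depth of the markers of the inner retina. In Het libraries 37 of the 42 genes could be tested, of which 36 were lower in rods, beside 35.7% of all 15951 genes tested. In that comparison limma called 0 members higher, beside 22.9% of all genes, and 1 member, Grin2d, was higher at an unadjusted p of 0.040. With libraries of the same number paired, 1 member, Grin2d, was called higher (adjusted p = 0.035). In KO libraries 37 could be tested, of which 35 were lower (34.9% of all 15858 genes) and 1 was higher (27.4% of all genes). The median log2 fold change of the members was -4.48 in Het and -4.40 in KO libraries, whereas that of all genes tested was -0.06 and 0.03. The 2 comparisons share no library. The 5 members not tested, Gabra5, Gabra6, Gabre, Gabrp and Grin3b, were at 19 or less in every library.

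Summed over the 42 genes, the receptors took 1430 ± 103 of every 1000000 units of the table in Het retina (SD, n = 3), 1390 ± 233 in KO retina, 73.5 ± 1.02 in Het rods and 71.2 ± 5.65 in KO rods. In scaled values, 14 members reached 10 in all 6 rod libraries, 11 did so in some of them and 17 in none. Of those 14, only Grin2d was not called lower in either genotype, and Grik5 was not called lower in KO libraries. These are the members kept in rods by the rule used here.

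**Figure D1:**
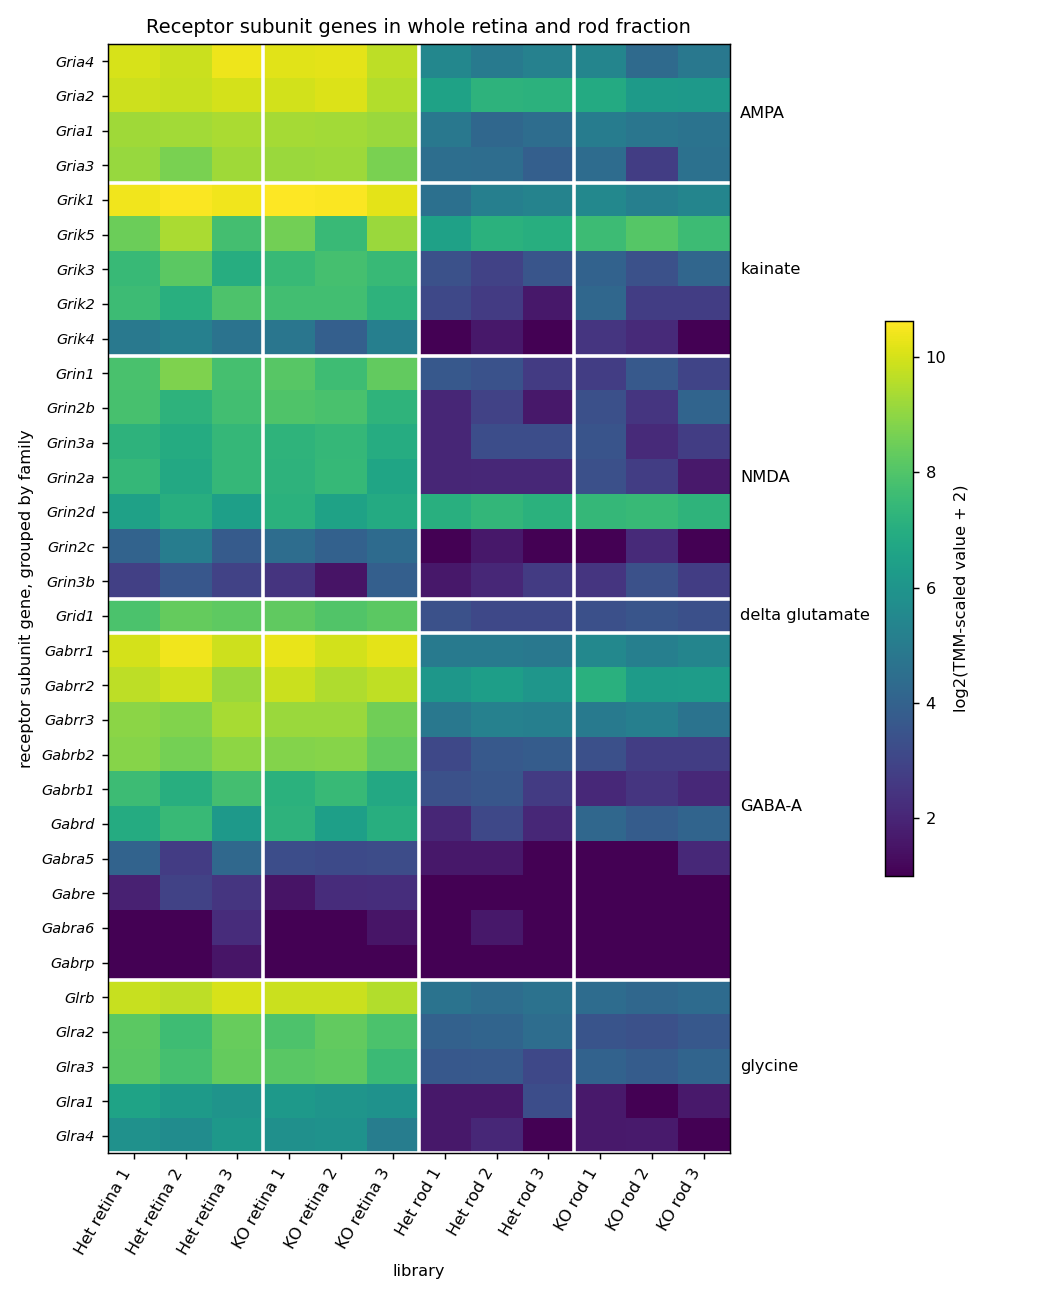
Level of the 32 receptor genes named in the text (rows, grouped by family and ordered by mean retina level) in each of the 12 libraries (columns), as log2 of the TMM-scaled value plus 2, in colour. The 6 rod columns are dark for nearly all genes, and Grin2d is the row that keeps its colour across the 12 columns, with Grik5, Gria2 and Gabrr2 the brightest of the other genes shown in rods.

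Grin2d, which encodes a glutamate-binding NMDA receptor subunit known for slow channel closing, was the member not called lower in rods in either genotype. It was listed at 103, 139 and 94 in Het retina and at 124, 149 and 129 in Het rods. In KO libraries it was listed at 160, 105 and 125 in retina and at 141, 149 and 130 in rods. As deposited, the ranges of the 2 fractions overlapped in both genotypes. On the TMM-scaled values that entered the fit they did not, with rods at 132 to 163 against 83.9 to 128 in Het retina, and at 151 to 178 against 91.8 to 139 in KO libraries. The log2 fold change was 0.55 in Het (SE 0.22, 95% CI 0.03 to 1.06, adjusted p = 0.062, not called) and 0.52 in KO libraries (SE 0.20, 95% CI 0.06 to 0.98, adjusted p = 0.047, called higher, limma). The size of the rise depended on the scaling, since with library size alone it was 0.11 in Het and -0.04 in KO libraries, while the median of all genes moved by -0.45 and -0.58. In a paired fit, with replicate numbers as blocks, adjusted p-values were 0.035 in Het and 0.084 in KO libraries. Removing each library's trend with GC content moved the log2 fold change to 1.81 in Het and 0.96 in KO libraries. The call in KO libraries was also lost without any of KO retina 2 (log2 fold change 0.38), KO retina 3 (0.50), KO rod 1 (0.51), KO rod 2 (0.46) or KO rod 3 (0.58), and in Het libraries the gene was called without Het retina 2 (0.76).

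The other NMDA receptor genes that could be tested went the opposite way. Grin1, whose product is the obligatory subunit of NMDA receptors, was listed at 272, 467 and 242 in Het retina and at 10, 8 and 4 in Het rods. Its KO values were 317, 224 and 342 in retina and 4, 9 and 5 in rods. No rod library came near a retina library, with a log2 fold change of -4.89 in both genotypes (SE 0.37, adjusted p = 9.6e-06 in Het; SE 0.32, adjusted p = 3.8e-06 in KO, limma). Grin2b, a glutamate-binding subunit abundant in the forebrain, was listed at 260, 161 and 235 in Het retina and at 2, 5 and 1 in Het rods (log2 fold change -5.41, SE 0.38, adjusted p = 6.5e-06). The values in KO libraries were 290, 262 and 163 in retina and 7, 3 and 13 in rods (-4.39, SE 0.42, adjusted p = 2.7e-05). Grin2a, its counterpart in mature neurons, and Grin3a, a glycine-binding subunit, had log2 fold changes between -5.17 and -4.34 in the 4 tests. Grin2c was listed at 13 to 35 in retina and at 0 to 2 in rods, below the worth of 3 reads in most libraries, so its fitted changes (-3.12 and -2.87) rest on the pseudocount.

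Within its family, Grin2d thus took a much larger share in rods. Per kilobase of transcript, it held 14.1% ± 0.351 of the NMDA receptor level in Het retina and 87.7% ± 0.289 in Het rods (SD, n = 3), and 16.8% ± 1.8 and 86.2% ± 2.06 in KO libraries. Grin1 went from 51.1% ± 8.97 to 6.14% ± 2.78 in Het and from 48.4% ± 7.11 to 4.62% ± 1.66 in KO libraries. The 3 rod values of each genotype lay above or below all 3 retina values in each case. These shares compare genes within a library, so the scaling between libraries does not enter them. Neither these nor the family shares below were corrected for GC content, and the part of a library's GC trend in them was not tested.

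The annotation places Grin2d on the minus strand of chromosome 7 (GRCm38, chr7:45831883-45878378), and 643 of its 6658 exon bases (9.7%) are shared with Gm45441, an antisense gene. The library kit does not mark strand, so reads in the shared bases cannot be told apart. Gm45441 was listed at 119, 143 and 93 in Het retina and at 203, 248 and 156 in Het rods, and was called higher in rods in Het (log2 fold change 1.04, SE 0.25, adjusted p = 0.0062) and in KO libraries (1.11, SE 0.18, adjusted p = 0.00074, limma). The part of these reads in the level of Grin2d was not tested.

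Grik5, which encodes a kainate receptor subunit that binds glutamate tightly and needs a partner such as the product of Grik1 or Grik2 to form a channel, was the other member kept in part. It was listed at 405, 740 and 240 in Het retina and at 83, 129 and 119 in Het rods, a log2 fold change of -1.64 (SE 0.39, 95% CI -2.54 to -0.75, adjusted p = 0.0060, limma). In KO libraries it was listed at 440, 208 and 617 in retina and at 163, 228 and 165 in rods. The groups did not overlap in Het libraries, whereas KO retina 2 lay among the KO rod libraries as deposited, and the change of -0.66 (SE 0.37, 95% CI -1.50 to 0.18, adjusted p = 0.14) was not called. It was called without KO retina 2 (-1.10, adjusted p = 0.0019). With library size alone the KO change was -1.22 (adjusted p = 0.013), and with each library's GC trend removed the Het and KO changes were -0.65 and -0.40. Its retina values were highest in Het retina 2 and KO retina 3, where the members' deviations from the group mean rose with GC content (Spearman 0.72 and 0.70), and lowest in Het retina 3 and KO retina 2, where they fell with it (-0.78 and -0.67).

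Grik1, the kainate subunit known from OFF bipolar cells, was listed at 1588, 1629 and 1533 in Het retina and at 20, 31 and 35 in Het rods, the largest fall among the members in Het libraries (log2 fold change -5.46, SE 0.22, adjusted p = 5.9e-07, limma). Its KO values were 1817, 1730 and 1292 in retina and 36, 28 and 34 in rods (-5.14, SE 0.18, adjusted p = 3.9e-07). Grik2 and Grik3, which can also form channels alone, had log2 fold changes between -5.09 and -3.72, with 1 to 14 units in rods. Grik4, the other high-affinity subunit, was at 15 to 38 in retina and at 0 to 3 in rods. As a result the make-up of the kainate family per kilobase turned over. Grik5 held 19.4% ± 8.13 in Het retina and 76.2% ± 1.72 in Het rods (SD, n = 3), and 18.7% ± 9.93 and 81.0% ± 5.21 in KO libraries, while Grik1 went from 71.9% ± 7.63 to 20.2% ± 2.06 and from 72.8% ± 9.17 to 15.1% ± 3.56.

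The sequences just upstream of the start sites of the 2 kept genes are shown because these are the members whose transcripts remained in rods. They are 250 bases each from RefSeq (GRCm38.p6), on the minus strand of chromosome 7, printed 5′ to 3′ in the direction of the gene. Grin2d lies at chr7:45866682-45866931 and Grik5 at chr7:25072370-25072619. The GENCODE model of Grin2d extends further upstream than this RefSeq start. Capitals mark the GC box, GGGCGG or its reverse complement CCGCCC.
Grin2d: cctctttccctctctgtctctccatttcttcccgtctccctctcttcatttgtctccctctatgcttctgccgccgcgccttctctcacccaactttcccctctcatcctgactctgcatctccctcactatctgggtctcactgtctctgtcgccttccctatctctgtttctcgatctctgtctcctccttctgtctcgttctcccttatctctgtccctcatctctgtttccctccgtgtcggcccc
Grik5: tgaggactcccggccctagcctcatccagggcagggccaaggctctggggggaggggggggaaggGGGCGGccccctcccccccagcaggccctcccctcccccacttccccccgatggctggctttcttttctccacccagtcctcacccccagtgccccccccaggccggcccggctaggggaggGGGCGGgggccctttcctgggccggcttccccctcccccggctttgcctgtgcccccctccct

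The Grin2d window was a pyrimidine-rich stretch of 54.4% GC with 0 GC boxes, and the Grik5 window was of 75.2% GC with 2. On either strand, the GC box was found in 32.7% of 32851 RefSeq promoter windows of the same length. TAATCC (reverse complement GGATTA), the core letters that the photoreceptor factor CRX is known to prefer, stood in 0 places in both windows and in 6.25% of all windows. RefSeq windows were found for 29 of the 42 members (33 windows), of which 14 windows held the GC box and 2 held TAATCC. A match of letters is a description and no binding site.

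Among the AMPA receptor genes, Gria2 fell least. Its product, once edited, makes AMPA channels nearly impermeable to calcium. It was listed at 1109, 980 and 1156 in Het retina and at 86, 136 and 132 in Het rods (log2 fold change -2.92, SE 0.20, adjusted p = 6.2e-06, limma). The values in KO libraries were 1158, 1273 and 775 in retina and 98, 61 and 62 in rods (-3.43, SE 0.24, adjusted p = 5.5e-06). All retina libraries stood far above all rod libraries. Gria4, the AMPA gene with the highest retina values, was listed at 1227, 997 and 1469 in Het retina and at 39, 26 and 33 in Het rods (-4.88, SE 0.21, adjusted p = 6.9e-07). In KO libraries it was at 1344, 1352 and 866 in retina and at 34, 15 and 23 in rods (-5.17, SE 0.29, adjusted p = 2.0e-06). Gria1 and Gria3 had log2 fold changes of -5.11 to -4.46 and were at 4 to 26 in rods. Per kilobase, Gria2 made up 18.3% ± 1.1 of the AMPA receptor level in Het retina and 47.3% ± 10.6 in Het rods (SD, n = 3), and 18.3% ± 1.12 and 39.7% ± 5.23 in KO libraries.

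Grid1, a delta glutamate receptor gene whose product acts as a synaptic organiser, was nearly lost from rods. It was listed at 273, 351 and 338 in Het retina and at 8, 6 and 6 in Het rods (log2 fold change -4.97, SE 0.24, adjusted p = 1.2e-06, limma). Its KO values were 356, 291 and 316 in retina and 7, 8 and 7 in rods (-4.75, SE 0.22, adjusted p = 1.1e-06). The ranges were far apart.

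Of 19 GABA-A genes 15 could be tested, and all 15 were lower in rods in both genotypes, beside 35.7% (Het) and 34.9% (KO) of all genes. Some of them reached a scaled value of 10 in no rod library, so retina values alone took these past the filter. The rho subunits form slowly closing GABA receptors in bipolar cells. Gabrr1 was listed at 1206, 1478 and 1052 in Het retina and at 27, 26 and 25 in Het rods (log2 fold change -5.19, SE 0.19, adjusted p = 3.8e-07, limma). In KO libraries it was at 1449, 1152 and 1285 in retina and at 36, 28 and 34 in rods (-4.84, SE 0.17, adjusted p = 3.9e-07). Gabrr2 kept more of its level, with 936, 1060 and 647 in Het retina and 63, 75 and 59 in Het rods (-3.41, SE 0.22, adjusted p = 4.5e-06), and with 1073, 804 and 904 in KO retina and 116, 64 and 67 in KO rods (-3.11, SE 0.24, adjusted p = 8.7e-06). All rod libraries lay below all retina libraries for both genes. Gabrr3 changed by -3.97 in Het and -4.04 in KO libraries, and Gabrb2, a beta subunit of GABA-A receptors, by -5.32 and -5.73. Per kilobase, the share of Gabrr2 in the GABA-A level was 15.3% ± 4.16 in Het retina and 22.3% ± 2.97 in Het rods (SD, n = 3), and 16.5% ± 2.91 and 28.2% ± 5.44 in KO libraries, whereas that of Gabrr1 went from 18.3% ± 3.91 to 7.45% ± 0.0814 and from 19.5% ± 3.47 to 9.68% ± 0.636.

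All 5 glycine receptor genes were lower in rods in both genotypes, beside 35.7% (Het) and 34.9% (KO) of all genes. Glrb, the beta subunit that ties the receptor to its scaffold, was listed at 1048, 892 and 1176 in Het retina and at 22, 18 and 21 in Het rods (log2 fold change -5.27, SE 0.18, adjusted p = 3.4e-07, limma). The values in KO libraries were 1072, 1056 and 781 in retina and 16, 14 and 16 in rods (-5.42, SE 0.19, adjusted p = 3.9e-07). The ligand-binding alpha subunits Glra1, Glra2, Glra3 and Glra4 had changes between -4.62 and -3.90. Glra2, whose mean in retina was close to that of Glra3 (273 and 274 scaled units in Het, 264 and 256 in KO libraries), was listed at 336, 215 and 373 in Het retina and at 13, 14 and 18 in Het rods (-3.90, SE 0.27, adjusted p = 5.8e-06). In KO libraries it was at 278, 359 and 255 in retina and at 8, 7 and 9 in rods (-4.53, SE 0.23, adjusted p = 1.5e-06). Glra1 and Glra4 were at 0 to 7 in rods, so retina values alone took them past the filter on low values.

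**Figure D2:**
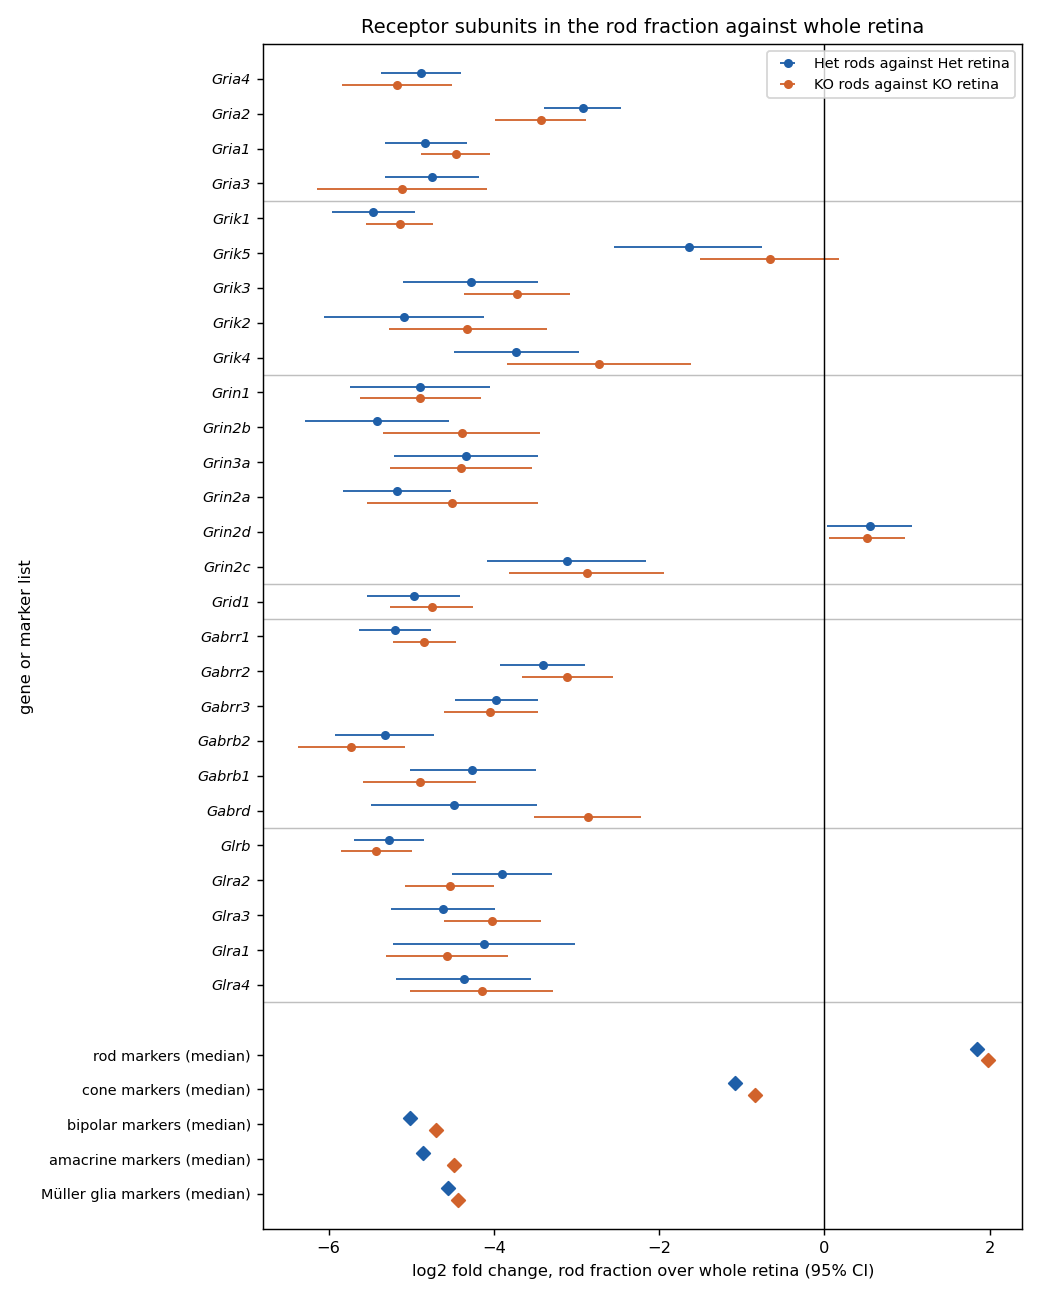
Log2 fold change of rods over retina with its 95% confidence interval for the 27 tested members named in the text, in Het (blue) and KO (orange) libraries, by family from AMPA at the top to glycine, with the median change of 5 marker lists below (diamonds). Grin2d is the member right of 0 in both genotypes (0.55 and 0.52), Grik5 follows at -1.64 and -0.66, and most others lie near the bipolar, amacrine and Müller glia markers.

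Compared per kilobase of the longest transcript, the order of the members described here changed between the fractions. In Het retina Gabrr1 (486 ± 95.9 scaled units per kb, SD, n = 3), Gabrr2 (406 ± 103) and Grik1 (385 ± 20.7) did not differ beyond their spread, and Grin2d was at 18.4 ± 4.43. In Het rods Gabrr2 (36.7 ± 5.07), Grik5 (31.7 ± 7.32) and Grin2d (26.7 ± 2.99) overlapped with their neighbours in this order within 1 SD. In KO rods Grik5 (58.2 ± 12.4) and Gabrr2 (50.2 ± 17.8) were not separated by their spread, and Grin2d was at 30.4 ± 2.52. Grik1 was at 8.48 ± 2.36 in Het rods and 10.5 ± 1.25 in KO rods, and Gabrr1 at 12.3 ± 0.415 and 16.8 ± 1.99.

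**Figure D3:**
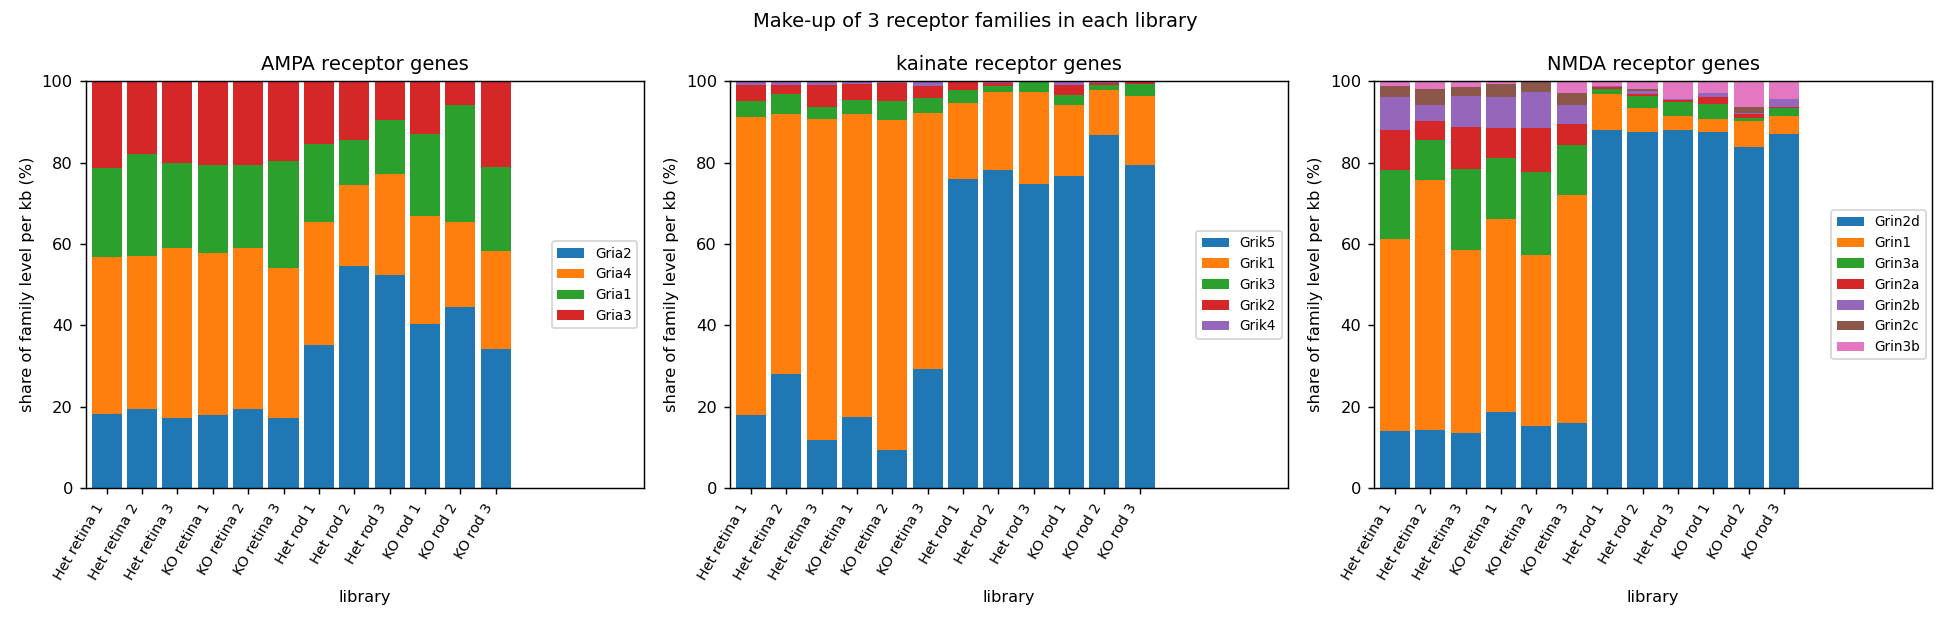
Make-up of the AMPA, kainate and NMDA families in each of the 12 libraries, as the share of each gene in the family's summed level per kb (%). In rods Grin2d (blue, NMDA) holds 83.8% to 87.9% and Grik5 (blue, kainate) 74.7% to 86.8%, while Gria2 (blue, AMPA) also takes a larger share than in retina.

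Whether the loss of Shp2 in rods altered these receptors was asked first in the whole retina. In KO against Het retina limma called 0 of the 37 members tested, beside 0% of all 16780 genes in either direction, and 0 members and 137 genes had an unadjusted p below 0.05. The log2 fold changes of the members lay between -0.30 (Gabrb1) and 0.23 (Grin2d), with a median of -0.03 against 0.01 for all genes. For 0 of the 42 genes did the KO and Het retina libraries fail to overlap, beside 1.28% of all genes tested with KO above and 1.65% with KO below. The 95% interval ran from -0.35 to 0.80 for Grin2d and from -1.26 to 1.06 for Grik5, so changes within these ranges were not excluded.

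In rods, 20 members were abundant enough to be compared between KO and Het, and 2 were called higher in KO, Grik5 and Gabrd, beside 12.1% of all 13039 genes tested. Limma called 0 members lower, beside 1.53% of all genes, and 1 member below 0, Gria2, had an unadjusted p under 0.05. Grik5 rose from 83, 129 and 119 to 163, 228 and 165 (log2 fold change 0.85, SE 0.20, 95% CI 0.41 to 1.29, adjusted p = 0.012), with the groups apart. Gabrd, the delta subunit of GABA-A receptors that lie outside synapses, rose from 2, 6 and 2 to 14, 10 and 13 (1.57, SE 0.44, 95% CI 0.62 to 2.52, adjusted p = 0.022). The KO libraries alone took Gabrd past the filter on low values, so that it was tested at all depended on its being high in KO, and without the filter its adjusted p was 0.013. The Het values lie at the worth of a few reads, and in retina the gene was at 80 to 193. Grik5 kept its call with any 1 library left out (0.64 to 0.95, adjusted p at most 0.048), whereas Gabrd lost it without Het rod 1 (1.40), Het rod 3 (1.41), KO rod 1 (1.49) or KO rod 3 (1.54).

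Both called genes are GC-rich. In KO against Het rods, the log2 fold change of all genes tested rose with the GC content of the transcript (Spearman 0.70 over 12893 genes), and over the 20 members the same value was 0.50. The transcripts of Grin2d (65.0%), Grik5 (62.3%) and Gabrd (56.8%) were the most GC-rich of the 20. With each library's GC trend removed, 195 genes of the table were called higher and 161 lower, in place of 1579 and 200, and the change of Grik5 became -0.06 (adjusted p = 0.84) and that of Gabrd 1.05 (adjusted p = 0.17). Grin2d, which was at 0.17 (SE 0.15, 95% CI -0.16 to 0.50, adjusted p = 0.44) without the correction, was then called lower (-0.90, adjusted p = 0.0060). A technical and a biological origin of this GC trend cannot be told apart in this design, where it runs with the genotype.

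**Figure D4:**
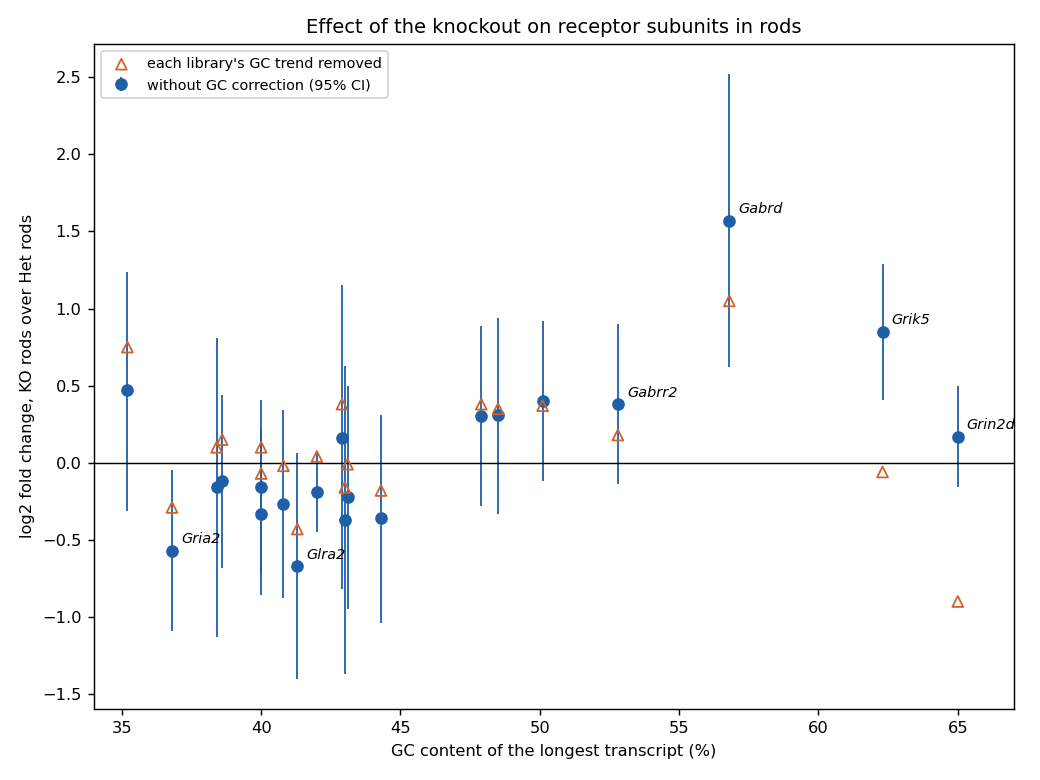
Log2 fold change of KO over Het rods for the 20 members tested (y axis), against the GC content of the longest transcript in % (x axis), without correction (blue, with 95% confidence interval) and with each library's GC trend removed (orange triangles). Grik5 moves from 0.85 to -0.06, Grin2d from 0.17 to -0.90 and Gabrd from 1.57 to 1.05, while the members under 45% GC move up slightly.

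The other 18 members were not called. Gria2 was at -0.57 (SE 0.24, 95% CI -1.09 to -0.05, adjusted p = 0.10) and Gabrr2 at 0.38 (95% CI -0.14 to 0.90, adjusted p = 0.27). Gria2 was called lower with library size alone (-0.67, adjusted p = 0.043) and without KO rod 1 (-0.79, adjusted p = 0.047). Of the 20 members tested, 3 had KO rod values all above (Grik5, Gabrd, Gabrr1) and 2 all below the Het rod values (Glra2, Glrb), as deposited, where 19.1% and 27.2% of all genes tested did so. A fit over all 12 libraries, with a pooled spread, called 0 members and 0 genes of the table in this comparison, with Grik5 at 0.87 (adjusted p = 0.28) and Gabrd at 1.64 (adjusted p = 0.21).

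The effect of the knockout was not shown to differ between rods and retina for any member. In the interaction over 12 libraries limma called 0 of 37 members, beside 0% of all 16921 genes in either direction, while 1 member and 510 genes had an unadjusted p below 0.05. That member was Gabrd (1.60, SE 0.54, unadjusted p = 0.012, adjusted p = 0.88). For Grik5 the difference was 0.99 (SE 0.61, 95% CI -0.34 to 2.32, adjusted p = 0.88), and for Grin2d -0.02 (95% CI -0.66 to 0.61).

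Genes that work with these receptors were read in lists of companions. Of 73 companions tested in Het libraries, 76.7% were lower and 11% higher in rods, beside 35.7% and 22.9% of all genes. In KO libraries 74% of 73 were lower and 11% higher, beside 34.9% and 27.4% of all genes. Genes higher in rods were thus fewer in these lists than among all genes. Of 13 AMPA and kainate auxiliary subunits tested, 13 were lower in Het rods and 12 in KO rods (median log2 fold changes -4.26 and -4.04), and the exception was Cacng7, a TARP family member, at -0.68 (called lower) and -0.25. Of 17 glutamate receptor scaffolds, 13 were lower and 2 higher in Het rods. Dlg1, a postsynaptic and junctional scaffold, was higher in both genotypes (0.65 and 0.56), as Homer1 was in Het (0.52) and Homer3 in KO libraries (1.11). Of 12 genes for inhibitory receptor scaffolds and trafficking, 6 were lower and 2 higher in both genotypes, the latter being Clptm1 (0.92 and 1.22), known to hold GABA-A receptors back in the cell, and Gabarapl2 (0.67 and 0.65), an autophagy protein related to the GABA-A receptor-associated protein.

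Of the 10 metabotropic receptor genes, 9 were lower and 1 higher in rods in both genotypes. The gene that was higher was Grm8, the presynaptic glutamate receptor of photoreceptor terminals (1.02 and 0.88). Gabbr1, a GABA-B receptor subunit, was lower by a small amount (-0.60 and -1.01) and its partner Gabbr2 by a large one (-5.44 and -4.88). Among 16 transport and synthesis genes 12 were lower, Gad1, Gad2, Slc32a1 and the glycine transporter Slc6a5 among them, all with log2 fold changes of -4.46 or below. Among the 3 that were higher in both genotypes were Slc17a7, which loads glutamate into synaptic vesicles (1.19 and 1.64), and Slc1a7, a glutamate transporter of photoreceptors (0.80 and 1.3). Of 5 chloride transporters tested, 3 were lower in each genotype. In KO retina 0 companions were called. In KO against Het rods limma called 5 of 56 companions higher (8.93%, beside 12.1% of all genes) and 1 lower (1.79%, beside 1.53%), and the fit over all 12 libraries called 0 genes. Pick1 (1.07), Homer3 (0.82), Slc6a9 (0.75), Slc12a5 (0.67) and Slc1a7 (0.51) were higher and Gabbr1 (-0.51) was lower. These values come from the fit without GC correction, and the part of the GC trend in them was not tested.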

How the data were processed

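The 42 genes, the companion lists and the marker lists were chosen with earlier results of these data known. The table deposited by the authors holds, per gene and library, a signal in whole numbers proportional to read counts. The equal totals within a fraction show that it was scaled before it was deposited, so it is no raw count. The submitters' processing notes name CASAVA 1.8.2, HISAT2, edgeR, DESeq2 and GRCm39, and the counting tool, its annotation and strand setting are not given in the sources used here. Libraries were made with SMART-Seq V4. Groups came from the genotype and tissue labels, replicate numbers from the titles, and 0 columns were left unused.

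Values were scaled with TMM factors (trim 30% of ratios and 5% of levels) and fitted with limma 3.58.1 (trend, robust, two-sided) in R 4.3.3 on log2(value + 2). Fold changes on this scale understate the change of low genes. Genes needed a value of 10 in 3 libraries and a sum of 15, and only the groups compared entered a fit. P-values were adjusted by Benjamini-Hochberg over all genes tested. The design planned a count test for raw counts and limma otherwise. The script was tested on simulated data. Lengths, GC content and overlaps came from GENCODE GRCm38 and promoters from RefSeq GRCm38.p6, which is not the build of the submitters. Each library's GC trend was estimated by lowess (span 0.3). Reads per library were estimated from the spacing of low values, and they limit precision by counting error only. The estimate failed for Het retina 3. Python 3.11.15 and matplotlib 3.10.9 drew the figures.

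Named with full values were members kept in rods (a scaled value of 10 in all 6 rod libraries and not called lower), the 2 members of each family highest in retina, and members called in any comparison of KO with Het or called higher in rods. Gabrr1 and Gabrr2 are given in full beside them, chosen after their values were seen, and others by range or fold change. A few genes are counted with the members but not reported here by name. Het rods and Het retina of the same number deviated together (r = 0.48, 0.42 and 0.25), although the titles alone give the numbers. The printed fits have no block, as planned, and a fit with the number as a block is given where it changed a call. Between KO rods and KO retina the same numbers went together less (r = 0.34, -0.01 and 0.19, mean 0.17 against -0.08 for other numbers). Between the genotypes the mean r of the same numbers was 0.07 in rods and -0.11 in retina.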

Additional observations from a re-analysis of the deposited data

How the results depend on the processing

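The fall of the members in rods was the stable result. The number called lower was 36 in Het (36 in all 6 fits that left out 1 library) and 35 to 36 in KO libraries when 1 library was left out. It was 38 and 37 without the filter on low values, which let 42 and 41 members be tested, and 36 in KO libraries with library size only. Asking a value of 10 of every library left 16 and 17 members to test and called 15 lower in each genotype. Over the single members, 2606 of 2634 alternative fits kept the call or its absence. Of the rest, 16 lost a call, 9 gained one and 3 changed direction with a call in the main or the alternative fit. Changes of direction with no call in either fit stand among the 2606. For example, Grik5 in KO against Het retina ran from -0.49 to 0.34 when 1 library was left out, without a call.

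The member called higher in rods, Grin2d, depended on the processing. In Het libraries 1 member was called higher, in place of 0, with RLE scaling, with all 12 libraries in 1 fit, with the replicate block and with the GC trend removed (0 to 1 when 1 library was left out). In KO libraries 0 members were called higher, in place of 1, with RLE scaling, with library size only, with a pseudocount of 8, without the filter on low values and with the replicate block (0 to 1 when 1 library was left out). With library size only, Grin2d changed direction in KO libraries (-0.04). Of all genes, 1168 were then higher and 7399 lower in Het libraries, and 1144 and 7846 in KO libraries, in place of 3653 and 5689 and of 4347 and 5540. All genes called lower were 8763 and 8340 without the filter and 2474 and 2543 with a value of 10 in every library.

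In KO against Het rods, members called higher were 1 with library size only and with a value of 10 in every library, and 0 in the fit of all 12 libraries, with the GC trend removed (Grik5 at -0.06 and Grin2d at -0.90) and after removal of rod-depleted genes, which left 1 member to test. Members called lower were 1 with library size only and 1 with the GC trend removed. When 1 library was left out, 1 to 2 members were called higher and 0 to 1 lower. Of all genes, 195 were called higher with the GC trend removed, 0 were called in either direction in the fit of all 12 libraries, and with library size only 1202 were called higher and 584 lower. When 1 library was left out, between 967 (without Het rod 1) and 1630 genes were called higher and between 90 (without Het rod 1) and 326 (without Het rod 2) lower. In KO against Het retina 0 to 1 genes were called in each direction when 1 library was left out, and 0 to 1 lower in the interaction. The replicate block changed no other call of a member. Beyond the GC and scaling settings, the cause of these changes was not tested. Members at a few units in rods are limited by depth, and with 3 libraries a group no exact permutation test can pass 0.05.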
